A study of Mus musculus with 9 samples.

Results

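The constitutive proteasome subunit genes described here are the mouse genes with symbols of the Psma, Psmb, Psmc and Psmd families, followed by a number, that had a probe set annotated to a single gene. The 3 inducible catalytic genes Psmb8, Psmb9 and Psmb10 were left out of the group and serve as a comparison. This rule, which uses symbols and no measured value, gave 36 genes of 18193 named genes on the array. Of these, 35 had a mean signal above the filter and were tested among 12586 genes. Psmb11 was the gene below the filter. The group is not uniform in role. Psmd5, Psmd9 and Psmd10 encode assembly chaperones of the regulatory particle that leave before it is complete, Psma8 encodes an alpha subunit known from testis, and Psmb11 encodes the beta subunit of the thymus proteasome. The other 31 genes encode the standing parts of the particle in most cells.

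The study measured messenger RNA on 9 Affymetrix arrays in dendritic cells grown from bone marrow of 129/SvEv mice with the growth factor GM-CSF for 9 to 12 days. The groups were wild-type cells in media with no stimulation, wild-type cells given tumor-derived DNA with the lipid reagent Lipofectamine for 7 h, and STING knockout cells given tumor-derived DNA in the same way, each with 3 arrays. STING is the membrane adaptor that relays detection of DNA in the cytosol to interferon genes, and the knockout allele is not described in the sources used here. Neither STING knockout cells in media nor cells exposed to Lipofectamine alone were analysed here, so DNA and reagent cannot be told apart. For knockout against wild-type cells under DNA, a difference present before stimulation and a different response to DNA cannot be told apart either. The labels do not say whether the 3 samples of a group came from separate mice or cultures, and p-values measure only the spread between them, which may be technical.

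The proteasome degrades proteins that carry ubiquitin. Its core particle, the 20S proteasome, is a stack of rings: outer alpha rings that gate the entrance and inner beta rings that hold the catalytic sites of Psmb5, Psmb6 and Psmb7. The 19S regulatory particle caps the core, with a base of ATPases that unfolds substrates and a lid that removes ubiquitin. In dendritic cells interferons are known to induce Psmb8, Psmb9 and Psmb10, which replace the constitutive catalytic subunits in newly assembled core particles and change the peptides made for MHC class I presentation.

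Signals below are the deposited MAS5 intensities, and differences are on the scale of log2(signal + 16). A gene was called when its Benjamini-Hochberg adjusted p over all 12586 genes, from limma without the replicate numbers, was below 0.05. Dendritic cell markers were above the filter for 8 of 9 genes, with a summed signal of 60100 to 115000 per array. H2-Aa, H2-Ab1 and Cd74 had the highest signals of this list on every array. Flt3, the marker below the filter, read 5.74 to 55.1, and Zbtb46 read 54.1 to 226. Ccr7 and Cd86 were called higher with DNA in wild-type cells (2.62 for Cd86), and Cd86 was called lower in the knockout under DNA (-1.84). Sting1 read 246 to 336 on the knockout arrays and 646 to 2260 on the wild-type arrays. Of the other cell types, 3 of 5 mast cell and basophil markers were lower in knockout than in wild-type cells under DNA, with summed signals of 169 to 224 against 491 to 1380. The sums in wild-type media, 334 to 965, also lay above those of the knockout, without a called marker in that comparison. Of 5 plasmacytoid dendritic cell markers, the interferon-responsive Bst2 and the transcription factor gene Tcf4 were higher with DNA in wild-type cells and lower in the knockout, and the defining marker Siglech read 10.4 to 97.5 on every array. Of 6 macrophage markers, Fcgr1 was higher with DNA in wild-type cells (2.10) and lower in the knockout (-2.32), and Mertk was lower in the knockout (-1.65). Mrc1 (-0.93 and 1.46) and Adgre1 (-0.42 and 0.41) went the other way in these comparisons without a call. Csf1r (0.06 and -0.15) and Cd68 (-0.04 and 0.09) changed little. The summed signals of the list were 39400 to 57100 in media, 53700 to 69900 with DNA and 37000 to 54100 in the knockout. Of 6 T and NK cell markers, Cd247 was higher with DNA (1.15) and lower in the knockout (-1.17), with summed signals of the list of 127 to 295 per array. Neutrophil markers summed to 12800 to 60100 per array, with 1 of 7 called, lower in the knockout under DNA. The part of these cells in the results below was not tested, and fewer cells of a type and less RNA per cell cannot be told apart in bulk samples.

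In wild-type cells given tumor DNA, 29 of the 35 tested constitutive proteasome genes differed from media by less than 0.5 on the log2 scale. Of the 35 tested genes, 6 were higher and 1 was lower. That is 20% called, where 33.6% of all genes were called (9.94% higher and 23.6% lower). The median difference was -0.05 for the 35 genes and -0.20 for all genes. The 6 genes that rose were Psma2, Psma3, Psma4, Psma5, Psmb6 and Psmd8, by 1.34 to 1.63-fold, so 5 of them belong to the core particle. Of the 28 genes that were not called, 27 had a 95% interval that lay within a 2-fold change in either direction, and the exception was Psmb7. That bound is wider than the called rises, so it does not exclude changes of their size. The uncalled Psmd10 and Psmd5, for example, had intervals of 0.08 to 0.92 and -0.93 to -0.06. The 2 groups of 3 arrays did not overlap for 11 of the 35 genes, against 46.4% of all genes.

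**Figure D1:**
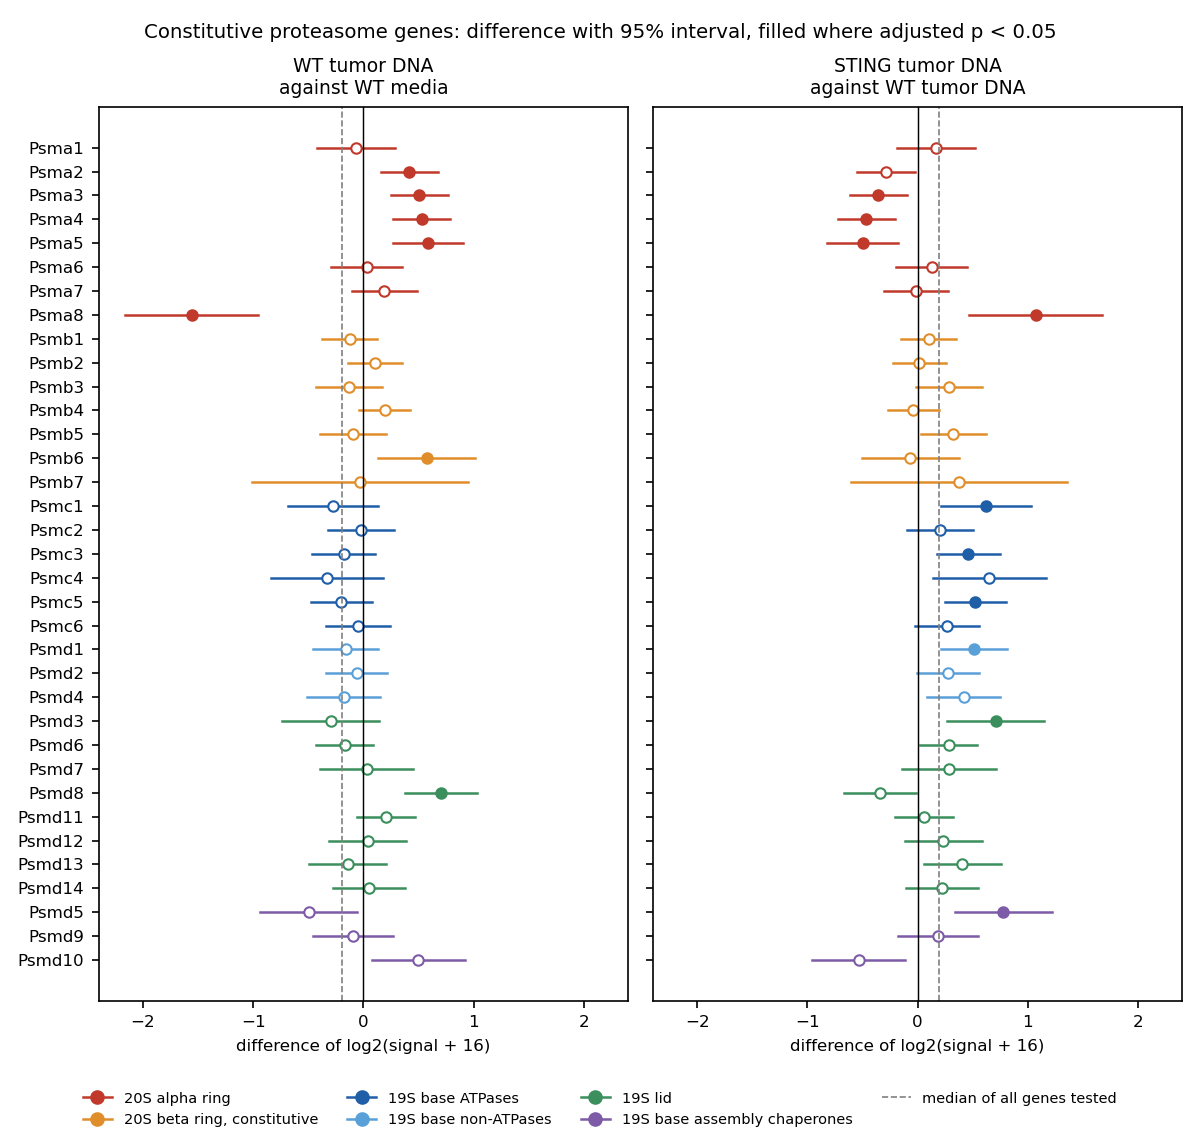
Each point is the difference of log2(signal + 16) of 1 gene, with its 95% interval, for wild-type cells with DNA against media on the left and knockout cells against wild-type, both with DNA, on the right. Colours give the place in the particle, filled points were called and the dashed line is the median of all genes, at -0.20 on the left and 0.20 on the right. Psma2 to Psma5 lie to the right of 0 on the left panel, where Psma8 lies far to the left at -1.56, and Psmc1, Psmc3 and Psmc5 lie to the right of 0 on the right panel.

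The alpha ring held most of the genes that rose. Psma3 read 9700, 9760 and 11600 in media and 15400, 15300 and 13400 with DNA. All 3 arrays with DNA lay above all 3 in media, and the difference was 0.51 (SE 0.12, adjusted p = 0.00848). Psma4 read 7650, 8370 and 8950 in media and 11900, 13000 and 11100 with DNA, a difference of 0.53 (SE 0.12, adjusted p = 0.00728) with no overlap. Psma5 read 8610, 9770 and 9720 in media and 14800, 15200 and 12300 with DNA, and rose by 0.59 (SE 0.14, adjusted p = 0.0119). A separate Psma5 probe set gave the same direction, with 4540, 5080 and 5080 in media, 8620, 8780 and 7250 with DNA and a difference of 0.74. Psma2 read 8030, 9280 and 10100 in media and 12500, 12200 and 11700 with DNA, a rise of 0.42 (SE 0.12, adjusted p = 0.0215). These 4 genes encode structural alpha subunits that form the ring together with the products of Psma1, Psma6 and Psma7, which were not called and differed by -0.06, 0.03 and 0.19. The 4 rises kept their direction under each normalization tried and were not called after quantile normalization, where the differences were 0.15 to 0.31 with adjusted p of 0.0843 to 0.296. After centring on all probe sets Psma3 and Psma4 were called and Psma2 and Psma5 were not (adjusted p = 0.0807 and 0.056). The count of 6 higher genes was 2, 2 and 1 when all arrays numbered 1, 2 or 3 were left out.

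Psma8 was the 1 gene that fell. It read 357, 211 and 276 in media and 55.6, 98.9 and 102 with DNA, so the groups did not overlap and the signals were low. The difference was -1.56 (SE 0.27, adjusted p = 0.00261) and remained called after quantile normalization (-1.39) and after either centring (-1.56 and -1.25).

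In the constitutive beta ring, 1 of the 7 tested genes was called in the main fit. Psmb6, which carries the caspase-like site, read 3950, 6020 and 6560 in media and 9730, 7330 and 7230 with DNA. The groups did not overlap and the difference was 0.57 (SE 0.20), but the adjusted p of 0.0487 was close to the threshold and the rise came mostly from replicate number 1, where it was 1.30 against 0.28 and 0.14 in the other pairs. It was not called when any 1 array was left out, except the media array numbered 3, nor under quantile normalization (0.37). Psmb5, which carries the chymotrypsin-like site, read 5160, 6920 and 6340 in media and 5530, 6260 and 5390 with DNA, overlapping groups with a difference of -0.09 (95% interval -0.39 to 0.21). Psmb7, which carries the trypsin-like site, read 1330, 2640 and 3080 in media and 1260, 3140 and 2560 with DNA, a difference of -0.03 with a wide interval of -1.01 to 0.95. The non-catalytic Psmb1, Psmb2, Psmb3 and Psmb4 differed by -0.13 to 0.19 and none was called in the main fit. After centring on the probe sets past the filter, Psmb2 (0.41), Psmb4 (0.50) and Psmb6 (0.88) were called higher and all 7 differences of the ring were positive.

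In the 19S particle, Psmd8 stood apart. This lid subunit read 5380, 7340 and 6250 in media and 12000, 9660 and 9200 with DNA, with all arrays given DNA above all arrays in media. The difference was 0.70 (SE 0.15, adjusted p = 0.00577), the largest rise among the 35 genes, and it was called under quantile normalization (0.47) and both centrings (0.70 and 1.01). None of the other 7 lid genes was called, including Psmd14, which encodes the deubiquitinase of the lid (0.05), and their differences ran from -0.30 for Psmd3 to 0.20 for Psmd11. None of the 6 ATPase genes Psmc1 to Psmc6 was called with the probe sets used. A further Psmc6 probe set was called lower, at -0.67 (limma, adjusted p = 0.0449 over 27022 probe sets). With the probe sets used, the 6 differences ran from -0.33 for Psmc4 to -0.03 for Psmc2, and 5 of the 6 were positive after centring on the probe sets past the filter. The ubiquitin receptor gene Psmd4 and the scaffold genes Psmd1 and Psmd2 differed by -0.18 to -0.06 without a call, and these 3 also turned positive under that centring.

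The base chaperones did not move as a set. Psmd10, also known as gankyrin, read 1750, 2810 and 2050 in media and 3420, 3230 and 2590 with DNA, overlapping groups with a difference of 0.50 (adjusted p = 0.0685, and 0.0466 with the replicate number as a block). Psmd5 read 1190, 1720 and 1200 in media and 850, 1070 and 947 with DNA, groups that did not overlap, with a difference of -0.50 (adjusted p = 0.0764, and 0.0101 with the block). Psmd9 differed by -0.10. With the block, 7 of the 35 genes were higher and 3 lower. The 3 lower ones were Psma8, Psmd5 and Psmc4 (adjusted p = 0.031 for Psmc4).

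**Figure D2:**
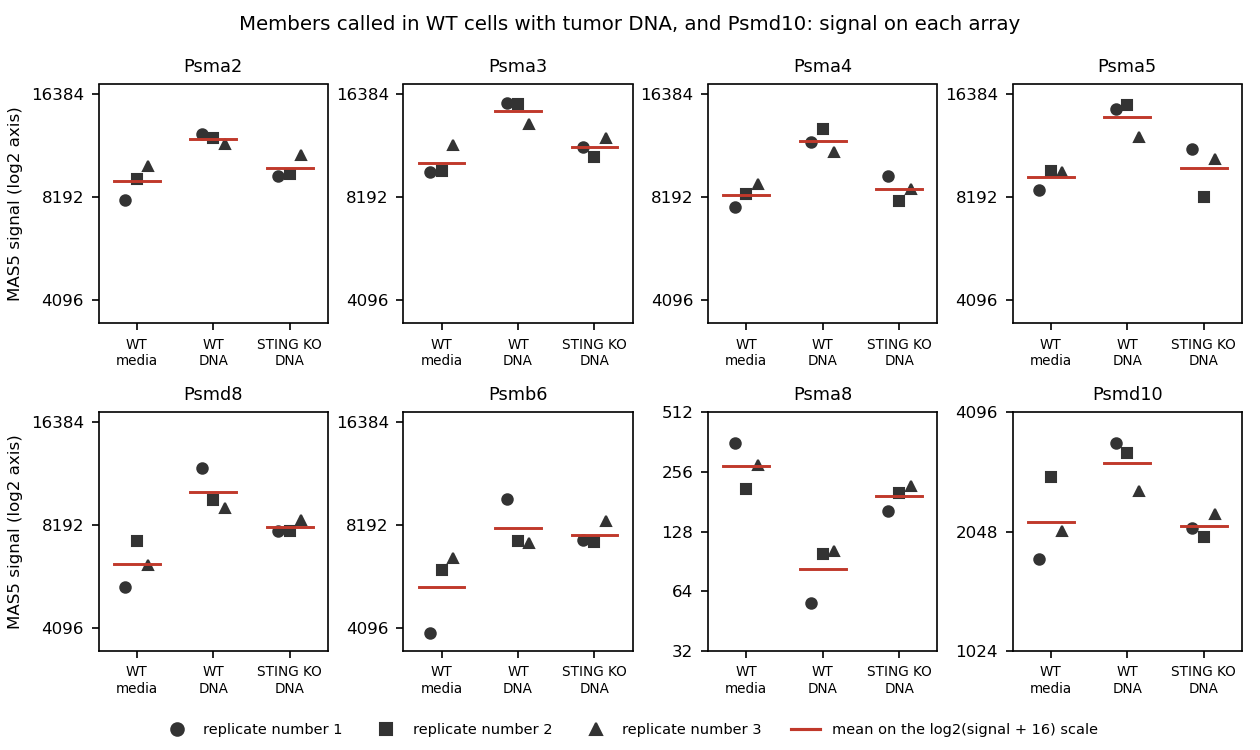
The MAS5 signal on each of the 9 arrays, on a log2 axis, is shown for the 7 genes called in wild-type cells with tumor DNA and for Psmd10. Marker shape is the replicate number and the red line is the group mean on the log2(signal + 16) scale. The 3 arrays of wild-type cells with DNA lie above the 3 in media for Psma2, Psma3, Psma4, Psma5, Psmd8 and Psmb6 and below them for Psma8, and Psmd10 overlaps.

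The sequences before the start sites of the 4 genes with the smallest adjusted p among those that rose, and of the catalytic pair Psmb6 and Psmb5, are printed because these genes moved differently within the same particle. Proteasome genes are known to be controlled together by the factor Nfe2l1 through antioxidant response elements. Of the 36 genes, 29 matched RefSeq's promoter table for GRCm38.p6. Each sequence is the 250 bases before the annotated start, 5′ to 3′ on the gene's strand, with capitals for the antioxidant-type core TGACNNNGC and for CCAAT on either strand.
Psma3, chr12:70974373-70974622, plus strand: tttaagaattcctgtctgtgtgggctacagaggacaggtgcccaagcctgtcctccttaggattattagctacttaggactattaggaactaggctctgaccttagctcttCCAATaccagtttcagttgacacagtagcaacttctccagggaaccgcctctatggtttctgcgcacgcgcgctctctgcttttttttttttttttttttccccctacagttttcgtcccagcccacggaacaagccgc
Psma4, chr9:54950609-54950858, plus strand: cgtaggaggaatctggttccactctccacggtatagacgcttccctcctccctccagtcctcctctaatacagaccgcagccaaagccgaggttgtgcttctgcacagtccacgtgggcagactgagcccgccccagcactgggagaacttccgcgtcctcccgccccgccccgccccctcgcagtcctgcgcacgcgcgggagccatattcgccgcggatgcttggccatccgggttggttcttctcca
Psma5, chr3:108256676-108256925, plus strand: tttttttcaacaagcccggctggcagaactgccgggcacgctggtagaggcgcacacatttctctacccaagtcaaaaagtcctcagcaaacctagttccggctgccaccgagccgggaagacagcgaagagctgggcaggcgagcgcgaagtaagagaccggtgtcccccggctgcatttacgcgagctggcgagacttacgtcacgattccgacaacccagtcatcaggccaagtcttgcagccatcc
Psmd8, chr7:29180674-29180923, minus strand: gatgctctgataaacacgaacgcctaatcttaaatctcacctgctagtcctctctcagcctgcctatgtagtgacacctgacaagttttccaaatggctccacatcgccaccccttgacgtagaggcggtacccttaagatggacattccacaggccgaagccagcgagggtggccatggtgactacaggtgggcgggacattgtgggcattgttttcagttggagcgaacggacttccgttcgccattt
Psmb6, chr11:70525107-70525356, plus strand: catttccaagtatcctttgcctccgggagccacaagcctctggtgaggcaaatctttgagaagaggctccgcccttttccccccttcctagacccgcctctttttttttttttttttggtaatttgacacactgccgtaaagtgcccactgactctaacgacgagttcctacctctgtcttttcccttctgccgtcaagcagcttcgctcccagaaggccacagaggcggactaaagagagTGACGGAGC
Psmb5, chr14:54617996-54618245, minus strand: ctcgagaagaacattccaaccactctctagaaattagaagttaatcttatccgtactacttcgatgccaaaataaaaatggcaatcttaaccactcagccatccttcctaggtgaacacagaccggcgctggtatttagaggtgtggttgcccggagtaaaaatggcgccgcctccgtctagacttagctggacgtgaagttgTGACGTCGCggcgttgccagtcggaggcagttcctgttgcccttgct
Neither motif was found in the Psma4, Psma5 and Psmd8 windows, Psma3 had a CCAAT match, and Psmb6 and Psmb5 each had 1 match to TGACNNNGC. Over the 29 genes, 5 held TGACNNNGC (Psmb5, Psmb6, Psmc6, Psmd9 and Psmd12), or 17.2%, against 10.2% of all 32851 windows. For each motif a gene counted if any of its windows matched, and 2 of the 29 had several windows. The shares of all windows count each window once, so the 2 measures are not quite alike. CCAAT was found in 12 of the 29, or 41.4%, against 33.8% of all windows. The interferon regulatory factor core GAAANNGAA was found in Psmb3, Psmd4 and Psmd9, 10.3% of the genes against 7.13% of all windows, and the STAT-type motif TTCNNNGAA in 0 of the 29 against 7.02% of all windows. Both strands were read, and in the printed windows the motifs do not overlap. Psmb6, which has the antioxidant-type core, was called higher with DNA, and Psmb5, Psmc6, Psmd9 and Psmd12, which have it too, were not called (-0.10 to 0.04).

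Knockout and wild-type cells were next compared under tumor DNA. Of the 35 genes, 7 were higher and 3 lower in the knockout, 28.6% called, where 31.5% of all genes were called (21.8% higher and 9.73% lower). The median difference was 0.23 for the 35 genes and 0.20 for all genes. Higher in the knockout were Psmc1, Psmc3, Psmc5, Psmd1, Psmd3, Psmd5 and Psma8, and lower were Psma3, Psma4 and Psma5. These are 6 of 20 genes of the 19S particle and its base chaperones and 4 of 15 core genes. This comparison shares the wild-type DNA arrays with the one above, so opposite signs of the same genes are not independent evidence. The groups did not overlap for 24 of the 35 genes, against 46% of all genes.

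Of the 6 ATPase genes of the base, Psmc1, Psmc3 and Psmc5 were higher in the knockout, and none was called after centring on the probe sets past the filter. Psmc5 read 1700, 1840 and 1710 in wild-type cells and 2480, 2400 and 2700 in the knockout, with no overlap and a difference of 0.52 (SE 0.12, adjusted p = 0.0102). Psmc3 read 3480, 3480 and 2930 against 4890, 4390 and 4340, a difference of 0.46 (SE 0.13, adjusted p = 0.0215). Psmc1 differed by 0.62 (adjusted p = 0.0276). Psmc4 read 3610, 5060 and 6210 in wild-type cells and 6510, 8020 and 8480 in the knockout, and was not called at an adjusted p of 0.0533 but was with the block (0.00129). Psmc2 and Psmc6 differed by 0.20 and 0.27 without a call. For Psmc6, 2 further probe sets were called at 0.67 and 0.95.

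Psmd1, the base scaffold that holds ubiquitin receptors, read 3780, 4510 and 4070 in wild-type cells and 6120, 6100 and 5380 in the knockout, higher on all 3 arrays by 0.51 (SE 0.13, adjusted p = 0.0166). The lid gene Psmd3 read 851, 991 and 1120 against 1570, 1840 and 1460, a difference of 0.71 (SE 0.20, adjusted p = 0.0211). The chaperone gene Psmd5 read 850, 1070 and 947 against 1430, 1970 and 1570, a difference of 0.78 (SE 0.20, adjusted p = 0.0136). In each of these genes the knockout arrays lay above all wild-type arrays given DNA. Psmd10 went the other way, with 3420, 3230 and 2590 in wild-type cells and 2090, 1980 and 2270 in the knockout, a difference of -0.53 (adjusted p = 0.0565, and 0.0371 with the block). Psma8 read 163, 201 and 217 in the knockout, above the 55.6 to 102 of wild-type cells given DNA, a difference of 1.07 (SE 0.27, adjusted p = 0.0137).

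**Figure D3:**
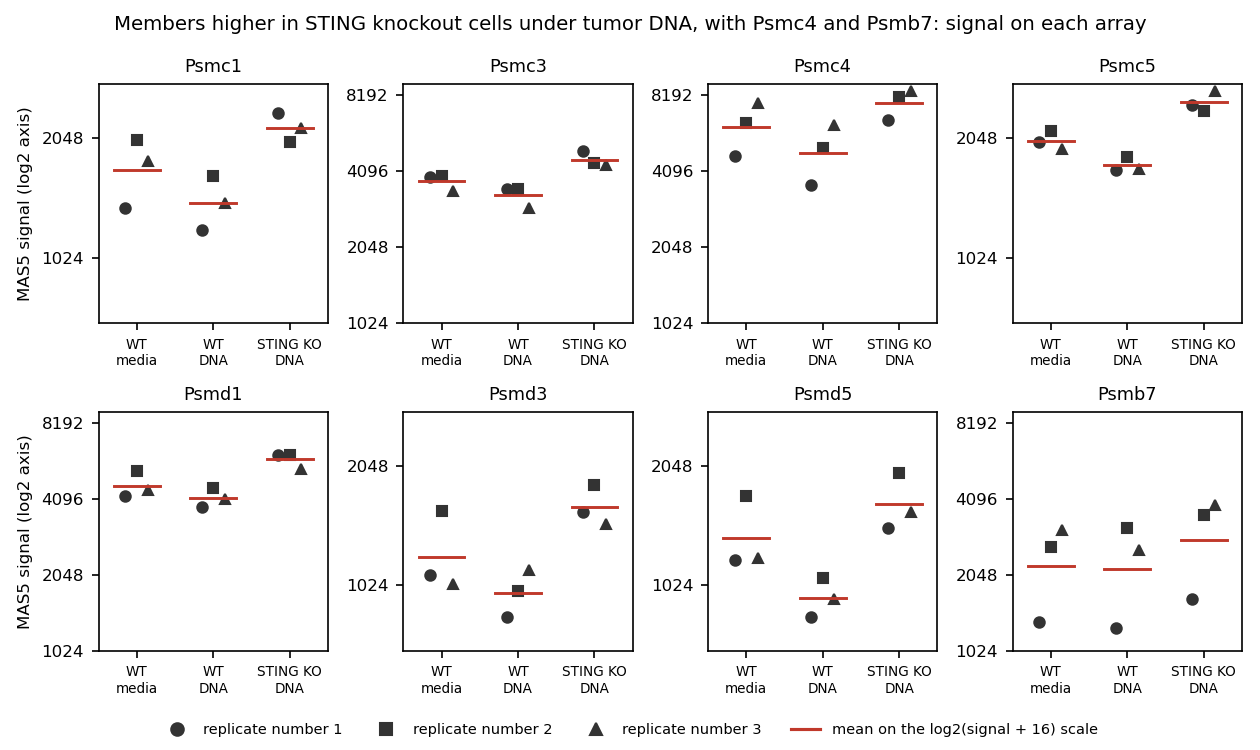
The MAS5 signal on each of the 9 arrays, on a log2 axis, is shown for 6 genes called higher in STING knockout cells under tumor DNA and for Psmc4 and Psmb7, which were not called. Marker shape is the replicate number and the red line is the group mean on the log2(signal + 16) scale. The knockout arrays lie above the wild-type arrays given DNA for every gene drawn except Psmb7, whose array numbered 1 is the lowest in each group.

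The 3 lower genes were alpha subunits. Psma4 read 9460, 7990 and 8620 in the knockout, below the 11100 to 13000 of wild-type cells given DNA, a difference of -0.47 (SE 0.12, adjusted p = 0.0129). Psma5 read 11300, 8220 and 10600, below 12300 to 15200, a difference of -0.50 (SE 0.14, adjusted p = 0.0247), and its other probe set differed by -0.60. Psma3 read 11500, 10700 and 12200, below 13400 to 15400, a difference of -0.36 (SE 0.12, adjusted p = 0.0395). Psma2 differed by -0.29 and Psmd8 by -0.34 without a call (adjusted p = 0.0889 and 0.102), and both were called after centring on the probe sets past the filter (-0.55 and -0.60). In the beta ring none was called with the probe sets used. The other Psmb3 probe set was called higher in the knockout, at 0.55 where the one used gave 0.29 (limma, adjusted p = 0.0241 over 27022 probe sets). Psmb5 read 6850, 7380 and 7280 in the knockout, above the 5390 to 6260 of wild-type cells given DNA, a difference of 0.33 (adjusted p = 0.091, and 0.0341 with the block), and Psmb6 read 7370, 7270 and 8400, a difference of -0.07.

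These calls depended on how arrays were scaled. The median over all genes was -0.20 for wild-type DNA against media and 0.20 for knockout against wild-type under DNA. Quantile normalization moved these to -0.10 and 0.10, and centring on the probe sets past the filter moved them to 0.11 and -0.06. After quantile normalization 11 genes were higher and 0 lower in the knockout (limma, adjusted p), after centring on all probe sets 7 were higher and 0 lower, and after centring on the probe sets past the filter 1 was higher (Psma8) and 6 lower (Psma2, Psma3, Psma4, Psma5, Psmd8 and Psmd10). Relative to the median of all genes the median of the 35 genes was 0.15 higher with DNA in wild-type cells and 0.04 higher in the knockout, in the scale as deposited and under either centring, and -0.03 and 0.24 after quantile normalization. With the replicate number as a block, 13 genes were higher and 4 lower in the knockout, adding Psmb5, Psmb7, Psmc4, Psmd4, Psmd6 and Psmd13 to the higher ones and Psmd10 to the lower ones. The count of 7 higher fell to 4 without the wild-type DNA array or the knockout array numbered 1, and to 3 without the knockout array numbered 2 or that numbered 3. The count of 3 lower fell to 1 without the wild-type DNA array numbered 1 or 2, and to 0 without the knockout array numbered 2.

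Knockout cells given DNA were also set against wild-type cells in media, which differ in both genotype and treatment. None of the 35 genes was called by limma in either direction, and 0.429% of all genes were (0.167% higher and 0.262% lower). At an unadjusted p below 0.05 there were 4 of the 35 genes and 948 of all 12586. The 4 were Psmb6 (0.51), Psmc5 (0.32), Psmd1 (0.35) and Psmd8 (0.36). The differences ran from -0.48 for Psma8 to 0.51 for Psmb6, 32 of the 35 were positive, and their median of 0.21 compares with -0.01 over all genes. Without the media array numbered 1 the median of the 35 was 0.11. The groups did not overlap for 9 of the 35 genes, against 13.8% of all genes. Psmb6 read 7370, 7270 and 8400 in the knockout, above its 3950 to 6560 in wild-type media. Averaging all probe sets of a gene left 1 gene called higher, Psmd6, which is described with its probe sets below.

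The inducible catalytic genes moved more than the subunits they replace. Psmb8 read 8330, 6650 and 7850 in media, 19000, 13200 and 13500 with DNA and 7840, 5160 and 6080 in the knockout with DNA. Psmb9 read 4300, 3260 and 3750, then 13000, 11800 and 10000, then 3820, 1820 and 1920. Psmb10 read 7340, 4930 and 5210, then 19100, 15100 and 13500, then 7150, 2820 and 3780. For all 3 the wild-type arrays given DNA lay above all others. The differences with DNA in wild-type cells were 0.98, 1.62 and 1.45, and in knockout against wild-type cells under DNA they were -1.26, -2.27 and -1.89. The difference taken within each array changed with DNA by 1.08 for Psmb8 minus Psmb5, 1.05 for Psmb9 minus Psmb6 and 1.48 for Psmb10 minus Psmb7, with 2-sided exact permutation p of 0.10, 0.10 and 0.30. This test does not use the replicate numbers. Within numbers 1, 2 and 3 the change of Psmb10 minus Psmb7 was 1.45, 1.36 and 1.64. In knockout against wild-type cells under DNA the same 3 quantities changed by -1.58, -2.21 and -2.26, each at an exact p of 0.10, the smallest that 3 arrays against 3 allow. In knockout cells with DNA against wild-type media they changed by -0.51, -1.16 and -0.78, with exact permutation p of 0.20, 0.10 and 0.50. Over the 9 tests of this kind the Benjamini-Hochberg adjusted values for p of 0.10 were 0.15 and that for Psmb10 minus Psmb7 in wild-type cells was 0.34.

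**Figure D4:**
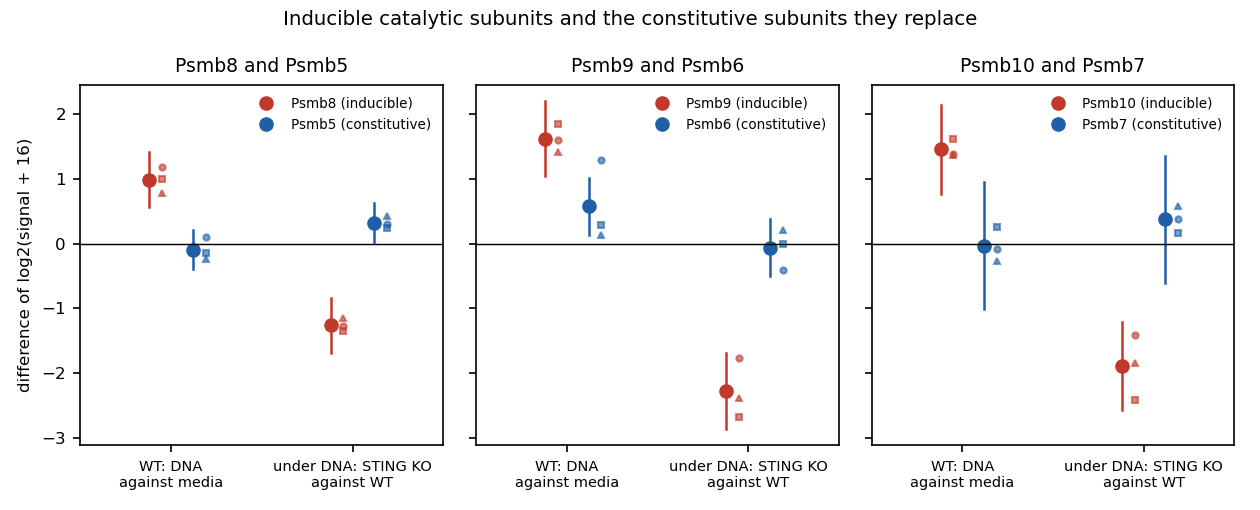
Differences of log2(signal + 16), with 95% intervals, are drawn for each inducible gene in red and the constitutive gene it replaces in blue, with small markers for the pairs of arrays of one replicate number. Psmb8, Psmb9 and Psmb10 lie at 0.98 to 1.62 for DNA against media and at -2.27 to -1.26 for knockout against wild-type, while Psmb5, Psmb6 and Psmb7 lie at -0.09 to 0.57 and at -0.07 to 0.38.

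Genes that act on the proteasome were taken from lists by role. Of all genes, 9.94% were called higher and 23.6% lower with DNA in wild-type cells. In knockout against wild-type cells under DNA these shares were 21.8% and 9.73%. With DNA in wild-type cells, 3 of 4 activators and inhibitors rose: Psme1, a subunit of the interferon-inducible PA28 cap, by 0.92 (adjusted p = 0.00179), the inhibitor gene Psmf1 by 0.63 and the activator gene Psme4 by 0.49, the last not called after quantile normalization. All 3 were lower in the knockout under DNA (-0.99, -0.75 and -0.75). The fourth gene of the list, Psme3, which encodes the PA28 gamma activator and was named after its values were seen, was not called with DNA (-0.32) and was higher in the knockout under DNA (0.69, adjusted p = 0.0234). Of 5 genes for 20S assembly chaperones, Pomp, the maturation factor, rose by 0.52 (adjusted p = 0.0148) and was not called after quantile normalization. The other 3 called in that list fell: Psmg1 by 1.33, Psmg2 by 1.58 and Psmg3 by 0.58 on the log2 scale, Psmg2 not called with the mean of its probe sets and Psmg3 not called after quantile normalization. Psmg1 read 1070, 1560 and 1890 in media, 311, 771 and 776 with DNA and 1090, 1810 and 1680 in the knockout with DNA, so the wild-type arrays given DNA lay below all others. Psmg2, its partner, read 1360, 1890 and 1880, then 217, 858 and 892, then 1390, 1920 and 1660.

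Of 9 other 26S partners, 5 fell with DNA and none rose, where 23.6% of all genes were lower and 9.94% higher. The proteasome-bound deubiquitinase gene Usp14 read 2190, 3090 and 2530 in media and 1180, 860 and 1250 with DNA, a difference of -1.24 (adjusted p = 0.00154), and was higher in the knockout under DNA by 1.33. The ligase gene Ube3c differed by -0.86 (not called after quantile normalization) and the shuttle factor genes Ubqln2 and Ubqln4 by -0.89 and -0.94. Nfe2l1, the factor known to drive proteasome genes when the particle is inhibited, was not called (-0.06, 95% interval -0.59 to 0.47). Of the 7 genes listed for transcriptional control of proteasome genes, Nfe2l1 among them, 1 rose and 1 fell, where 9.94% and 23.6% of all genes did. Ngly1, which encodes the enzyme that activates the Nfe2l1 product, fell by 0.93 and Mafk, which encodes a dimer partner, rose 2.83-fold. For scale, 1 of 44 cytosolic ribosomal protein genes rose and 5 fell with a median of -0.06. Of 9 genes of the COP9 signalosome, a complex related to the lid, 3 fell (33.3%, against 23.6% of all genes) with a median of -0.39. They were joined by Cops5 and Cops7a with the replicate block (adjusted p = 0.0228 and 0.023). Psme2 and Adrm1 lacked a probe set annotated to 1 gene only and were not analysed here.

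The 36 genes had 74 probe sets, 63 of them above the filter, and 17 genes had another probe set above it. No other probe set gave a called difference opposite in sign to the one used. In knockout against wild-type cells under DNA, other probe sets of Psmd11 (0.69) and Psmd13 (0.63) were called higher, unlike the ones used. Their limma adjusted p was 0.0193 and 0.035 over 27022 probe sets, and those of Psmb3 and Psmc6 are given above. Psmd6, a lid gene outside the rule for named genes and chosen after its values were seen, had the widest gap. The probe set used read 5830, 6200 and 6970 in media, 5480, 5260 and 6140 with DNA and 6850, 6740 and 6890 in the knockout, a difference of 0.28 in the knockout under DNA (adjusted p = 0.0921). The other probe set read 164, 315 and 562, then 198, 387 and 394, then 4630, 5360 and 5350. It differed by 3.96 between knockout and wild-type cells under DNA (adjusted p = 0.000139 over 27022 probe sets), by 3.97 between the knockout and wild-type media (adjusted p = 0.00108) and by 0.01 between the wild-type groups. What each probe set detects, and the cause of the gap between them, was not tested.

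**Figure D5:**
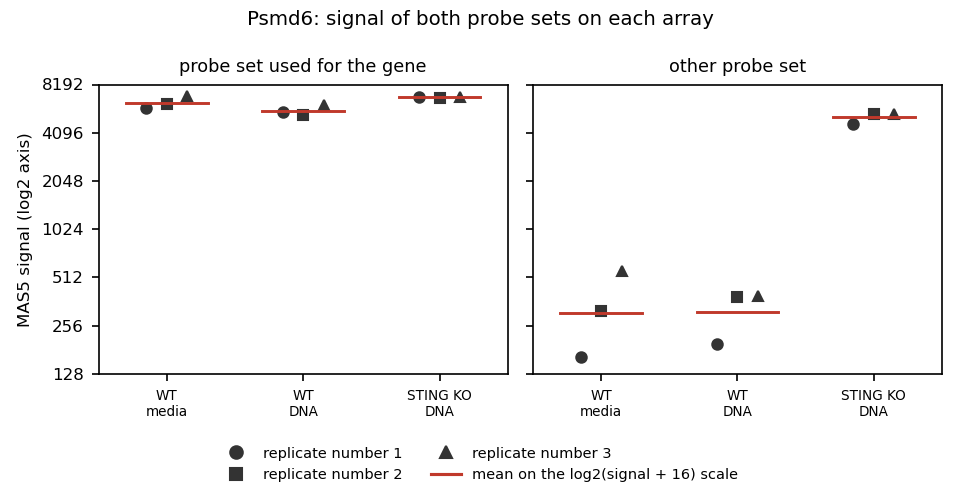
The MAS5 signal of both Psmd6 probe sets on each array is drawn on a log2 axis, with marker shape for the replicate number and a red line for the group mean on the log2(signal + 16) scale. The probe set used for the gene stays between 5260 and 6970 in all groups, and the other lies at 164 to 562 in wild-type cells and at 4630 to 5360 in the knockout.

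The spread within groups was small for most genes, with a median SD of 0.21 in media, 0.13 with DNA and 0.10 in the knockout (log2, n = 3 per group, 35 genes). Psmb7 had the largest, at 0.64 to 0.69. Its arrays numbered 1 read 1330, 1260 and 1640 and all others 2560 to 3850. The spiked hybridisation control BioB was also set apart on the arrays numbered 1, at 405.8 to 551.8 against 114.8 to 188.9, and the part of that in Psmb7 was not tested. With the replicate number as a block, Psmb7 was higher in the knockout than in wild-type cells under DNA by 0.38 (adjusted p = 0.0413, and 0.554 without the block). Psmb11 was not tested in the main fit and its signals, 29.8, 10.8 and 30.0 in media, 47.4, 55.1 and 55.7 with DNA and 7.5, 8.83 and 4.72 in the knockout, lie at or under the array medians of 53.7 to 70.9. When the filter was left out, Psmb11 was called lower in knockout than in wild-type cells under DNA, and Psma3 lost its call there.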

How the data were processed

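The deposited values are linear MAS5 signal intensities, 1 array per sample, per the submitters' processing notes. The MAS5 version is not given in the sources used here, nor is a genome build. Deposited intensities averaged 499.8 on every array over the range from the 2nd to the 98th percentile. Of 45101 probe sets, 64 were controls, and 34945 others carried 1 gene symbol.

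Intensities were analysed as log2(signal + 16), which understates the change of low signals. Probe sets with a mean above the 40th percentile (5.67) were kept and the highest mean stood for each gene. The 9 arrays entered 1 linear model (limma 3.58.1 under R 4.3.3, lmFit and trended eBayes), 2-sided, adjusted by Benjamini-Hochberg over 12586 genes. The model code was tested on simulated data. Within-array differences were tested by exact permutation. The number of arrays limits the precision.

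Genes named array by array were the 3 constitutive catalytic genes, the 5 called genes with the smallest adjusted p per direction and comparison, and genes with opposing probe sets. Of other lists, 8 fixed genes and the 3 called genes with the smallest adjusted p per list and comparison could be named. The array values of Psmc3, Psmc4, Psmd6, Psmd10 and Psmb11, and those of Psmd5 in media, fall outside this and were chosen after they were seen. Members and lists were chosen with earlier results of these data known.

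The replicate numbers come from the sample titles. Residuals from the group means correlated at 0.17 to 0.49 between arrays of the same number and at -0.42 to 0.14 between others. The numbers thus appear to pair the samples, but the main fit did not use them. The replicate block, run as an alternative, gave 7 higher and 3 lower genes with DNA in wild-type cells, against 6 and 1. In knockout against wild-type cells under DNA it gave 13 and 4, against 7 and 3. Alternatives were other offsets, normalizations, filters, probe set summaries, no trend, the replicate block and leaving out arrays.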

Additional observations from a re-analysis of the deposited data

How the results depend on the processing

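For DNA against media in wild-type cells, the count of 6 higher genes was 1 after quantile normalization, 3 after median centring over all probe sets, 11 after median centring over the probe sets past the filter (an alternative chosen after seeing the data), and 1 to 6 when arrays were left out. The count of 1 lower was 2 after quantile normalization, 3 with the replicate block and 2 with median centring and the block together, and stayed at 1 when arrays were left out. For knockout against wild-type cells under DNA, the count of 7 higher was 11 after quantile normalization, 11 with the mean of probe sets, 13 with the replicate block, 1 after median centring over the probe sets past the filter and 0 to 8 when arrays were left out. The count of 3 lower was 0 after quantile normalization, 0 after median centring over all probe sets with or without the block, 1 with no intensity trend, 6 after centring over the probe sets past the filter and 0 to 4 when arrays were left out. For knockout cells against wild-type media, 0 genes were higher except 1 with the mean of probe sets, and 0 were lower under every setting run. The value of 0 without all arrays numbered 3 in the knockout comparison, where 4 arrays are compared, has fewer samples by construction.

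No called difference of a single gene changed sign under any alternative run. Of the 4002 values of named genes under the alternatives, 3724 stayed on their side of the threshold, 232 lost the call and 46 gained it. Beside the calls given with the block in the report, the block added calls for Bach1 in both comparisons that hold the wild-type DNA arrays (adjusted p = 0.024 and 0.0168), for Cops5 in knockout against wild-type cells (0.00329), for Vcp (0.00795) and Uchl5 (0.0425) there, and for Sting1 in knockout cells against wild-type media (0.0319); among the genes of the lists it changed no other call. The share of higher genes among all genes called with DNA in wild-type cells was 29.6% and moved to 58.4% after centring over the probe sets past the filter; for knockout against wild-type cells it moved from 69.2% to 44.6%, and for knockout cells against wild-type media from 38.9% to 49.1%. The within-array differences between exchanged subunits kept their direction and stayed above the threshold, which 3 arrays against 3 cannot pass. Signals near the array median are not told apart from background, which limits Psma8 and Psmb11.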
